A study of Mus musculus with 8 samples.

Results

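The 6 genes of klotho and vitamin D metabolism, Kl, Vdr, Cyp27b1, Cyp24a1, Cyp2r1 and Pth1r, were followed in mouse kidney after bisphenol A (BPA) and after vehicle. They were taken by gene symbol from the deposited table, where 6 of 54532 genes carried these names. BPA, a monomer of polycarbonate plastics with weak activity at estrogen receptors, was given to ICR mice, an outbred stock, and polyadenylated RNA of the kidney was sequenced in 4 BPA libraries and 4 vehicle libraries. The sources used here give no dose, route, duration, sex or age. The labels number the libraries of a group as replicates without naming an animal for each, so a p-value reflects how far these libraries vary, and that variation may be technical.

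The kidney is the main site where vitamin D is turned into its hormone, calcitriol. Cyp2r1 encodes an enzyme, mostly of liver, that makes the circulating precursor calcidiol; Cyp27b1 encodes the mitochondrial hydroxylase that activates calcidiol, and Cyp24a1 the mitochondrial hydroxylase that breaks down both. Vdr encodes the nuclear receptor of calcitriol, which raises Cyp24a1 and lowers Cyp27b1. Parathyroid hormone, acting through the receptor encoded by Pth1r, raises Cyp27b1, while the bone hormone FGF23, which needs klotho (Kl) as its co-receptor, lowers Cyp27b1 and raises Cyp24a1.

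RefSeq promoter windows (build GRCm38.p6, 250 bases before to 50 bases after a start) were held for 5 of the 6 genes, all but Cyp24a1. Those of Cyp27b1, the activating enzyme, and of Kl, the co-receptor, are shown because the first is a low and uneven transcript and the second an abundant one. Capitals mark matches, on either strand, to TATATA and to the CCAAT box (CCAAT) in Cyp27b1 and to the GC box (GGGCGG) in Kl. The Cyp27b1 window is chr10:127047996-127048295 and the Kl window chr5:150952357-150952656, both on the plus strand.
Cyp27b1: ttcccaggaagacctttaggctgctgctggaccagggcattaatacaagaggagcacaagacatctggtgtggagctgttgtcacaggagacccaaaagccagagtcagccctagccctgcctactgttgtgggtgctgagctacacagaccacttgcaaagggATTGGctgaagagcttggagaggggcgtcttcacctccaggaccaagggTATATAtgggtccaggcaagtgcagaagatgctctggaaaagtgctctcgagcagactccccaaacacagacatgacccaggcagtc
Kl: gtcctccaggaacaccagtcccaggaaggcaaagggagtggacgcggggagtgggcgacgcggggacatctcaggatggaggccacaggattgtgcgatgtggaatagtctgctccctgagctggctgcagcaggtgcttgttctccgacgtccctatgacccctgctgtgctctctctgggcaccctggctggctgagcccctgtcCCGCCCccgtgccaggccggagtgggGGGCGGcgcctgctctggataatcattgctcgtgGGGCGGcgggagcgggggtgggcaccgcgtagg
The Cyp27b1 window held TATATA once, at position -37 from the start, as did 5.67% of 32851 promoter windows, and CCAAT once, at position -86, as did 37.4%. It held 2 CG dinucleotides, against 19 in the Kl window and a median of 7 over all windows. These counts did not follow transcript level over the genes: the window of Cyp2r1, the rarest transcript, held 22. The Vdr window held 15, and the windows of Pth1r, the most abundant, held 5, 23 and 27. The Kl window held 3 GC boxes, a motif found in 35.7% of windows, and no marked match overlapped another. A direct repeat with 3 bases between half-sites (AGGTCA, with the variants AGTTCA and also GGTTCA, on either strand), the pattern bound by the vitamin D receptor with its retinoid partner, was found in 0.0244% of windows and in none of the 7 windows of Kl, Vdr, Cyp27b1, Cyp2r1 and Pth1r.

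Sequencing depth overlapped between the groups, at 16178630 to 17226655 reads per BPA library and 15944081 to 17351540 reads per vehicle library. Whole reads were recovered from the FPKM values (reads scaled by gene length and a factor for each library). That factor was not the read total alone. Times gene length, 1 read stood for 61.4 in BPA replicate 3 (17226655 reads) and 54.6 in vehicle replicate 1 (17351540 reads). BPA replicate 4 stood apart, with 17174 genes above 0 against 19090 to 20845 in the other libraries and the highest share of reads from mitochondrial genes. That share did not overlap between the groups, at 9.66 to 14.2% in BPA and 7.02 to 8.33% in vehicle. Of 11 lists of cell type markers, 11 overlapped between BPA and vehicle in summed level. Of their 49 tested markers 0 were called, beside 0.00748% of all tested genes. An unadjusted limma p under 0.05 was met by 0 of them, beside 11% of all tested genes. Vehicle libraries differed among themselves, from 10.4 to 45.3 FPKM in the podocyte list and from 213 to 681 FPKM in the thick ascending limb list. The overlap therefore does not show equal cell content. The proximal tubule list ran from 1952 to 2500 FPKM in BPA and from 2109 to 2379 FPKM in vehicle, and 8 of its 8 markers were above 0 in every library. The distal convoluted tubule list ran from 91.1 to 133 FPKM in BPA and from 91.4 to 154 FPKM in vehicle. Vehicle replicate 4 held 225 FPKM of skeletal muscle markers, against 0.231 to 1.17 FPKM in BPA, and 87.4 FPKM of fat markers, against 1.52 to 10.2 FPKM in BPA. Vehicle replicate 2 also held 38.0 FPKM of fat markers, and the part of these tissues in the results was not tested. Of 5 adrenal markers, Cyp11a1 and Cyp11b2 were listed at 0 in every library. Star was above 0 in every library, with 232 reads over the BPA libraries and 182 over the vehicle libraries. Cyp11b1 had 4 reads, all in vehicle, and Cyp21a1 had 1 read in BPA and 3 in vehicle.

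The comparison of BPA with vehicle asked whether any of these genes differed. None passed limma's test on log2(FPKM + 1): 0 of the 5 members with a mean of at least 0.5 FPKM had a Benjamini-Hochberg adjusted p under 0.05, where 0.00748% of the 13376 tested genes did. At an unadjusted p under 0.05 there was 1 member, Cyp24a1, higher in BPA, where 4.18% of all tested genes were higher, 6.83% lower and 11% either. BPA and vehicle overlapped in every member, where 3.23% of tested genes were higher and 4.66% lower in BPA without overlap. Cyp2r1 was below the filter on low values.

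The genes kept nearly the same order of level per length in every library. Pth1r was the highest, at 267 ± 45.2 FPKM in BPA and 299 ± 21.95 FPKM in vehicle (SD, n = 4 each), which placed it at the 99.0th percentile of tested genes. Kl came next, then Vdr, Cyp24a1, Cyp27b1 and Cyp2r1. Neighbours in this order did not overlap, except that Vdr and Cyp24a1 met in BPA, where Cyp24a1 exceeded Vdr in replicate 4 alone. Cyp27b1 and Cyp2r1 came closest in BPA replicate 1, at 0.336 and 0.327 FPKM, within counting error of each other. Between Cyp24a1 and Cyp27b1 the ratio of group means was 21.9 in BPA and 5.22 in vehicle.

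**Figure D1:**
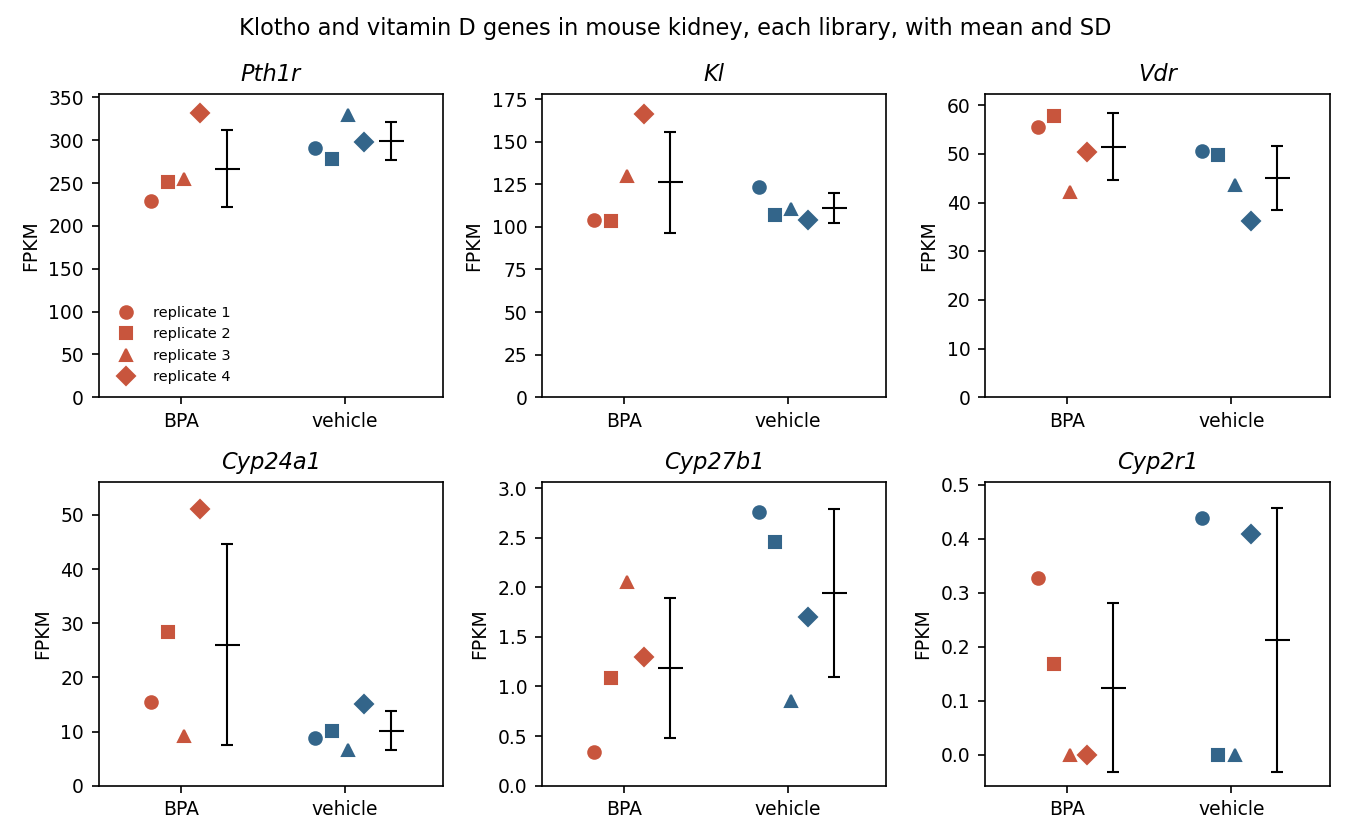
FPKM of the 6 genes in each BPA and vehicle library (symbols give the replicate, the bar beside them the mean and SD, n = 4). Cyp24a1 reached 51.2 FPKM in BPA replicate 4, and the groups overlap in every panel.

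Cyp24a1 (ENSMUSG00000038567), the inactivating hydroxylase, had 15.4, 28.3, 9.18 and 51.2 FPKM in BPA replicates 1 to 4, against 8.80, 10.1, 6.55 and 15.1 FPKM in vehicle replicates 1 to 4. BPA replicates 1, 2 and 4 lay above every vehicle library, and BPA replicate 3 lay among them. The group means were 26.0 ± 18.6 FPKM in BPA and 10.1 ± 3.61 FPKM in vehicle, and the log2 change was 1.07 (SE 0.469, 95% interval 0.00201 to 2.13, limma adjusted p = 0.453). Taken apart, replicates 1 and 2 gave a change of 1.07 and replicates 3 and 4 one of 1.06, a split of the libraries chosen with earlier results of these data known. Without BPA replicate 4 the change over the libraries left was 0.66 (limma adjusted p = 0.595). With 361 to 3011 reads per library, counting error was 2.54% of the level in BPA and 3.99% in vehicle, against a spread between libraries of 71.4% in BPA and 35.6% in vehicle. That spread in BPA, on the log2 scale, ranked above 98.0% of tested genes. The mitochondrial share of reads, which separated BPA from vehicle, was highest in the library with the most Cyp24a1, and its part in this difference was not tested. The gene lies on chromosome 2 from 170482708 to 170497145 (GRCm38, minus strand, 12 exon blocks), and 83 bases of its exons overlap the antisense gene Pfdn4, which had at most 5.005 FPKM; the sources used here do not say whether reads were counted by strand.

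Cyp27b1 (ENSMUSG00000006724), the activating hydroxylase, was a rare transcript whose mean was lower in BPA, without passing the test. It had 0.336, 1.08, 2.05 and 1.29 FPKM in BPA replicates 1 to 4, against 2.76, 2.46, 0.854 and 1.70 FPKM in vehicle replicates 1 to 4. BPA replicate 1 was the lowest library and vehicle replicates 1 and 2 the highest, while vehicle replicate 3 lay below 3 of the BPA libraries. Those levels rest on 15 to 86 reads per library in BPA and 34 to 130 in vehicle; the 15 reads of BPA replicate 1 give an exact Poisson 95% interval of 0.188 to 0.554 FPKM, for counting error only. Counting error was 14.04% of the level in BPA and 10.6% in vehicle, against a spread between libraries of 59.3% in BPA and 43.8% in vehicle. The means were 1.19 ± 0.706 FPKM in BPA and 1.94 ± 0.851 FPKM in vehicle (log2 change -0.44, SE 0.292, 95% interval -1.10 to 0.23, limma adjusted p = 0.569). Replicates 1 and 2 gave -1.11 and replicates 3 and 4 gave 0.24, opposite signs whose difference was not tested. Leaving out BPA replicate 1 brought the change to -0.22 (adjusted p = 0.761). The log2(FPKM + 1) scale understates it, and limma-voom on recovered reads gave -0.88 (adjusted p = 0.534). Cyp27b1 lies on chromosome 10 from 127048250 to 127053006 (plus strand, 10 exon blocks).

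Set against each other within a library, the level of Cyp24a1 was 45.9, 26.2, 4.47 and 39.6 times that of Cyp27b1 in BPA replicates 1 to 4, against 3.19, 4.12, 7.68 and 8.88 times in vehicle replicates 1 to 4. BPA replicates 1, 2 and 4 were above every vehicle library, and BPA replicate 3 was inside the vehicle range. These ratios are imprecise because Cyp27b1 had few reads, 15 in BPA replicate 1, where the ratio was largest, and 34 in vehicle replicate 3. The ratio is a description made from these genes after their values were seen and carries no test.

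**Figure D2:**
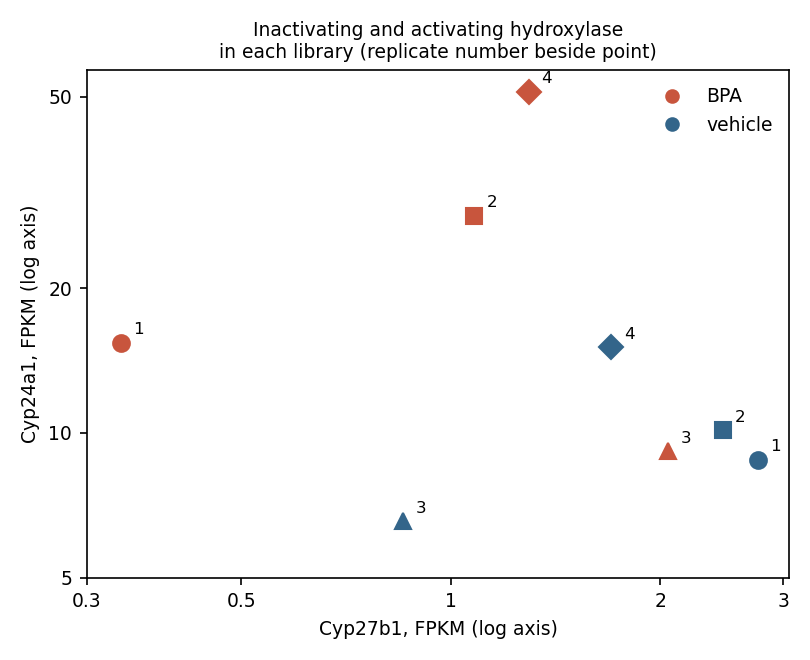
Cyp24a1 against Cyp27b1 in FPKM, both on log axes, 1 point per library with its replicate number. BPA replicates 1, 2 and 4 sit above or to the left of the vehicle libraries, and BPA replicate 3, at 9.18 and 2.05 FPKM, sits near vehicle replicates 1 and 2.

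Cyp2r1 (ENSMUSG00000030670), the enzyme that makes calcidiol, was near the limit of detection. It had 0.327, 0.168, 0 and 0 FPKM in BPA replicates 1 to 4, against 0.439, 0, 0 and 0.408 FPKM in vehicle replicates 1 to 4, from 18 reads in all BPA libraries and 32 in all vehicle libraries. A count of 0 allows up to 0.0917 FPKM in these libraries (3 reads, counting error only). The spread between libraries, 127% of the mean in BPA and 116% in vehicle, exceeded the counting error of 47.1% in BPA and 35.4% in vehicle. The mean difference of -0.0881 FPKM did not pass (2-sided exact permutation p = 0.657, where the smallest possible is 0.0286). The gene lies on chromosome 7 from 114549682 to 114562972 (minus strand).

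Kl (ENSMUSG00000058488), the co-receptor of FGF23 and an abundant transcript of the distal tubule, had 104, 104, 130.1 and 166 FPKM in BPA replicates 1 to 4, against 124, 107, 110.3 and 104 FPKM in vehicle replicates 1 to 4. BPA replicates 3 and 4 lay above all vehicle libraries, and BPA replicates 1 and 2 at the lower edge of them. The means were 126 ± 29.5 FPKM in BPA and 111 ± 8.69 FPKM in vehicle (log2 change 0.16, SE 0.167, 95% interval -0.22 to 0.53, limma adjusted p = 0.715). The spread between libraries was 23.4% of the mean in BPA and 7.81% in vehicle, a difference that was not tested. Replicates 1 and 2 gave a change of -0.14 and replicates 3 and 4 one of 0.45. Without BPA replicate 4 the change over the libraries left was 0.014 (limma adjusted p = 0.970). Kl lies on chromosome 5 from 150952607 to 150993817 (plus strand, 5 exon blocks). In whole tissue, fewer cells of a type and less RNA per cell cannot be told apart.

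Vdr (ENSMUSG00000022479), the receptor of calcitriol, had 55.5, 57.7, 42.2 and 50.4 FPKM in BPA replicates 1 to 4, against 50.6, 49.8, 43.6 and 36.2 FPKM in vehicle replicates 1 to 4. In both groups replicates 1 and 2 were above replicate 3. The means were 51.4 ± 6.89 FPKM in BPA and 45.0 ± 6.65 FPKM in vehicle (log2 change 0.19, SE 0.148, 95% interval -0.15 to 0.52, limma adjusted p = 0.620). Replicates 1 and 2 gave a change of 0.17 and replicates 3 and 4 one of 0.21. Without vehicle replicate 4 its change was 0.09 (adjusted p = 0.862). It lies on chromosome 15 from 97854425 to 97910630 (minus strand, 14 exon blocks).

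Pth1r (ENSMUSG00000032492), the receptor of parathyroid hormone on the proximal tubule, had 229, 251, 255 and 332 FPKM in BPA replicates 1 to 4, against 291, 278, 329.5 and 297 FPKM in vehicle replicates 1 to 4. BPA replicates 1 to 3 lay below every vehicle library and BPA replicate 4 above them. The log2 change was -0.18 (SE 0.143, 95% interval -0.50 to 0.15, limma adjusted p = 0.636). Without BPA replicate 4 it was -0.29 (limma adjusted p = 0.444). The GC content of its longest transcript was 60.4%, the highest of the 6 genes, against 38.4 to 53.6% in the others. GC content also moved with the group: over 13364 genes of each library, which share its depth and preparation, the Spearman correlation between GC and the library's departure from the gene means ran from -0.287 to -0.0531 in BPA libraries and from 0.130 to 0.253 in vehicle libraries, and after a correction for it the change of Pth1r was 0.046. The gene lies on chromosome 9 from 110722085 to 110747145 (minus strand, 18 exon blocks), with 95 exon bases shared with the antisense gene Myl3, at 0.214 FPKM or less.

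**Figure D3:**
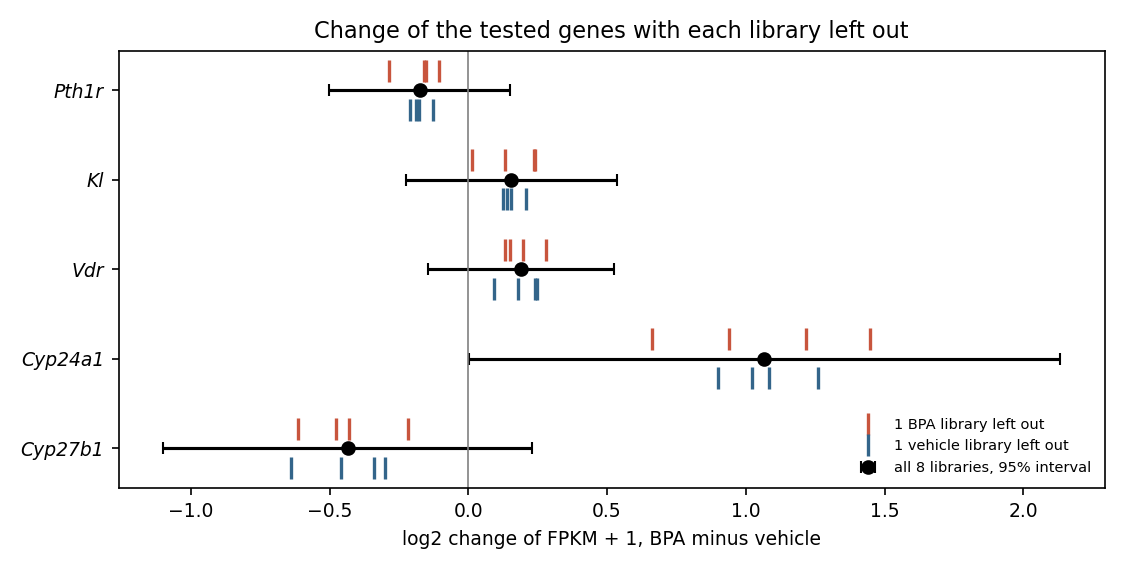
Log2 change of FPKM + 1 (BPA minus vehicle) of the 5 tested genes, with limma's 95% interval from all 8 libraries and the change when 1 BPA or 1 vehicle library is left out. Cyp24a1 runs from 0.66 to 1.45 over the libraries left out and Cyp27b1 from -0.64 to -0.22.

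The rest of the pathway was described over 62 genes in 6 lists, of which 53 passed the filter. Of these 0 were called by limma, 27 were higher and 26 lower in BPA. Their median log2 change was 0.01, beside -0.01 over all tested genes. At an unadjusted p under 0.05 there were 2 higher and 5 lower, 13.2% of the tested list genes beside 11% of all tested genes. Groups did not overlap in 5 genes, all lower in BPA, which is 9.43% of them beside 4.66% of all tested genes. The 5 were Amn, Rxrb, Fgfr4, Gnas and Crtc2, with transcript GC content of 54.5 to 62.9%; the part of GC content in this count was not tested.

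Hormone and ligand genes were at or near 0: Fgf23 and Pth had 0 reads, and Pthlh 1 read in BPA and 2 in vehicle. Of the receptors that klotho turns into FGF23 receptors, Fgfr1, Fgfr3 and Fgfr4 were tested and Fgfr4 had the smallest p of its list. It was at 12.8 ± 2.04 FPKM in BPA and 18.2 ± 1.26 FPKM in vehicle (log2 change -0.49, limma adjusted p = 0.355). Adam10, a protease that sheds klotho from the membrane, was at 17.1 ± 0.585 FPKM in BPA and 15.4 ± 1.21 FPKM in vehicle (adjusted p = 0.546). In this list 4 genes were higher and 4 lower, with a median of 0.02.

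Partners of the vitamin D receptor had 5 genes higher and 4 lower (median 0.01). Rxrb, a retinoid X receptor that pairs with VDR, was at 7.42 ± 1.23 FPKM in BPA and 10.5 ± 1.21 FPKM in vehicle (log2 change -0.46, limma adjusted p = 0.365). The more abundant partner Rxra, chosen after its values were seen, was at 30.0 ± 3.45 FPKM in BPA and 32.3 ± 4.07 FPKM in vehicle (adjusted p = 0.761).

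Hydroxylation and electron supply had 1 gene higher and 4 lower, with a median of -0.24. That median was -0.028 without vehicle replicate 3, -0.11 without BPA replicate 4 and -0.057 after GC correction. Fdx1, the ferredoxin that passes electrons to mitochondrial P450 enzymes such as CYP27B1 and CYP24A1, was at 19.6 ± 6.79 FPKM in BPA and 26.5 ± 4.20 FPKM in vehicle (log2 change -0.47, limma adjusted p = 0.499). Dhcr7, which draws the vitamin D precursor into cholesterol synthesis, was at 6.25 ± 0.823 FPKM in BPA and 5.35 ± 0.617 FPKM in vehicle (adjusted p = 0.546). The liver enzyme gene Cyp3a11 had 17 reads over the BPA libraries and 3 over the vehicle libraries and was not tested.

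Filtered calcidiol on its binding protein is taken up in the proximal tubule by megalin (Lrp2) and cubilin (Cubn) with amnionless (Amn) and the adaptor Dab2. Amn had 76.6, 73.0, 87.4 and 82.1 FPKM in BPA replicates 1 to 4, against 151, 147, 135 and 136 FPKM in vehicle replicates 1 to 4, without overlap and without passing (log2 change -0.83, limma adjusted p = 0.171). Dab2 was at 87.4 ± 9.63 FPKM in BPA and 70.9 ± 5.17 FPKM in vehicle (log2 change 0.29, adjusted p = 0.429). The list had 4 genes higher and 2 lower.

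Among genes of parathyroid hormone signalling 6 were higher and 7 lower, with a median of -0.06. Gnas, which encodes the stimulatory G protein of the receptor, was at 1.43 ± 0.544 FPKM in BPA and 2.90 ± 0.735 FPKM in vehicle (log2 change -0.69, limma adjusted p = 0.365); antisense transcripts overlap this locus, so its level is uncertain. Crtc2, a coactivator of CREB, was at 6.69 ± 0.260 FPKM in BPA and 7.81 ± 0.349 FPKM in vehicle (adjusted p = 0.444).

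**Figure D4:**
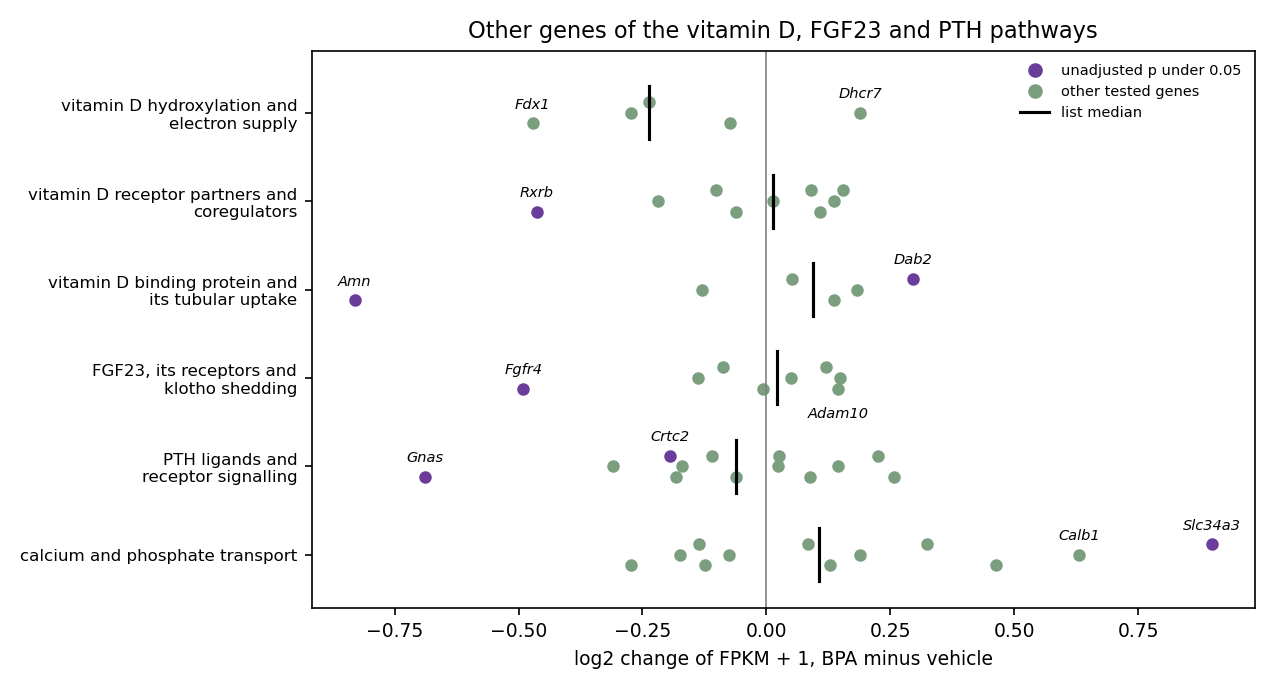
Log2 change of FPKM + 1 (BPA minus vehicle) of the 53 tested pathway genes in 6 lists, with the list median as a black bar and most of the genes with the smallest p named. Points lie on both sides of 0 in each list, from -0.83 (Amn) to 0.90 (Slc34a3).

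Calcium and phosphate transporters are what these hormones act on, and 7 were higher and 5 lower (median 0.11, and -0.14 without both replicates 4). Slc34a3, a sodium-phosphate cotransporter of the proximal tubule, had 15.1, 12.1, 15.5 and 14.8 FPKM in BPA replicates 1 to 4, against 12.02, 13.0, 4.11 and 3.86 FPKM in vehicle replicates 1 to 4. The low libraries were vehicle replicates 3 and 4, and its change of 0.90 (limma adjusted p = 0.429) split into 0.10 for replicates 1 and 2 and 1.70 for replicates 3 and 4. In those vehicle libraries the summed podocyte markers were also low, at 29.2 to 52.2 FPKM in BPA against 12.5 and 10.4 FPKM in vehicle replicates 3 and 4, and so were the summed endothelial markers, at 26.8 to 64.7 FPKM in BPA against 16.3 and 14.8 FPKM. The proximal tubule marker Gatm, chosen after its values were seen, had 233 to 344 FPKM in BPA against 97.5 and 99.0 FPKM in those vehicle libraries. The summed proximal tubule markers were not low there, at 2263 and 2379 FPKM against 1952 to 2500 FPKM in BPA. Among them Slc22a6 had 650 and 589 FPKM in those vehicle libraries, against 355 to 584 FPKM in BPA. The part of these in the change of Slc34a3 was not tested. Its abundant relative Slc34a1, chosen after its values were seen, was at 1010.2 ± 183 FPKM in BPA and 1097 ± 46.3 FPKM in vehicle (adjusted p = 0.735). Calb1, the calcium-binding protein of the distal tubule, had 65.8, 84.8, 63.6 and 147 FPKM in BPA replicates 1 to 4, against 90.7, 51.4, 68.2 and 27.6 FPKM in vehicle replicates 1 to 4 (adjusted p = 0.535). Chosen after its values were seen, Trpv5, the apical calcium channel of the same cells, had 3.11, 2.89, 3.60 and 12.7 FPKM in BPA replicates 1 to 4, against 4.97, 3.30, 4.78 and 3.73 FPKM in vehicle replicates 1 to 4. BPA replicate 4 was thus the highest library for Trpv5 and Calb1 as it was for Cyp24a1, Kl and Pth1r. It was also the highest for 3 of the 4 distal convoluted tubule markers: Slc12a3 had 72.6 FPKM there against at most 53.3 FPKM in any vehicle library, Klhl3 8.92 against at most 5.54 FPKM, and Trpm6 3.43 against at most 2.86 FPKM. The other marker, Pvalb, had 47.5 FPKM there, the lowest BPA library, against 42.1 to 109 FPKM in vehicle. The part of these cells in the levels was not tested.

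**Figure D5:**
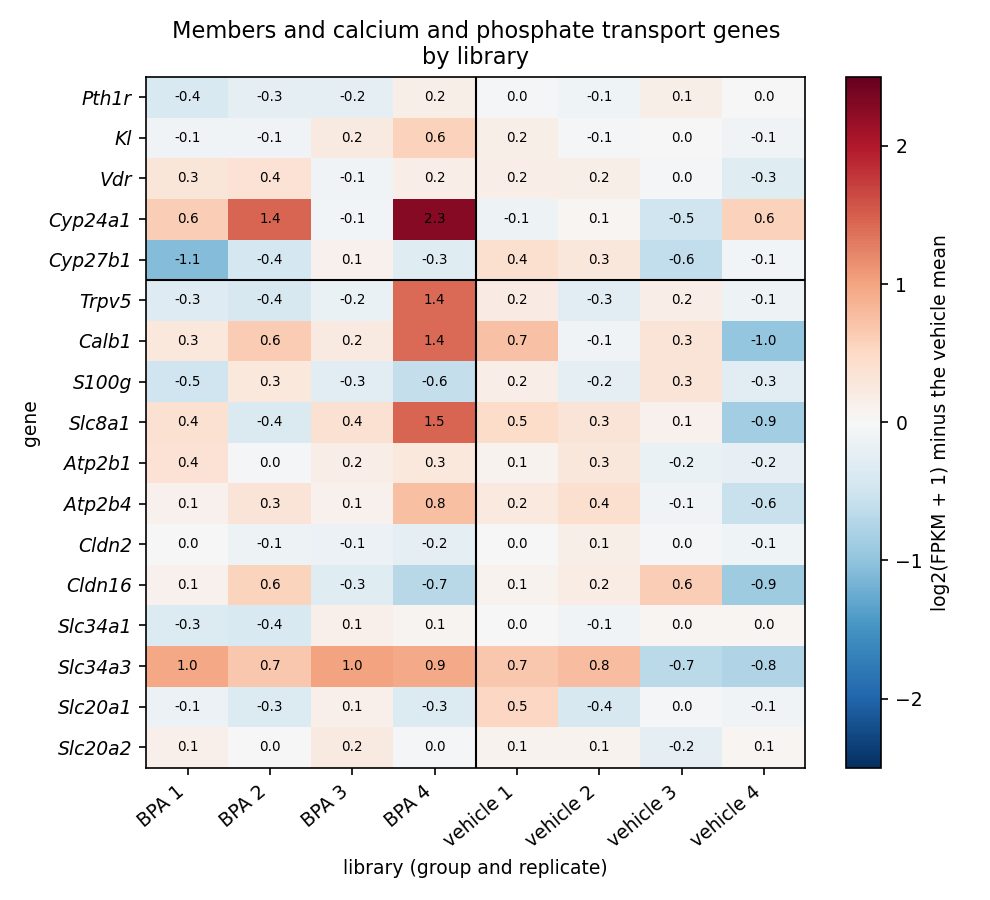
Log2(FPKM + 1) minus the vehicle mean, by library, for the 5 tested members (top) and 12 calcium and phosphate transport genes, with BPA libraries on the left. BPA replicate 4 holds the highest value of Cyp24a1, Slc8a1, Trpv5 and Calb1, and Slc34a3 is low in vehicle replicates 3 and 4.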

How the data were processed

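Kidney polyadenylated RNA of 4 BPA and 4 vehicle libraries was compared. The authors deposited FPKM values. GRCm38 and DESeq2 1.20.0 are named, without a role, per the submitters' processing notes; the sources used here name no aligner or counter. Columns named for BPA match those libraries; the others were taken as vehicle, the only other labelled group. Multiplied by gene length, FPKM values of up to 20 reads were whole multiples of the library's smallest step in 100% of cases (tolerance 0.01 reads), so whole reads were recovered.

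Tests were made with limma (version 3.58.1, under R 4.3.3) after taking log2(FPKM + 1), using trended, robust variance without covariates, for 13376 genes averaging at least 0.5 FPKM; calls needed an adjusted p (Benjamini-Hochberg) under 0.05, and the code was tested on simulated data. Intervals are limma's 95% intervals. Cyp2r1, below the filter, had an exact permutation test over 70 assignments. GC content came from the longest GENCODE M21 transcript, and coordinates of the 6 genes were the same there. The members and lists were chosen with earlier results of these data known. The rule for names took all members and, per list, called genes or else the 2 with the smallest p, and for each tested member the 3 protein-coding genes of at least 5 FPKM nearest in profile; a few of the genes it picks are not reported here. Alternatives were pseudocounts, filters, scaling, library weights, limma-voom, a replicate block, a term for replicates 1 and 2, GC correction and libraries left out. Figures used Python 3.11.15 and matplotlib 3.10.9.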

Additional observations from a re-analysis of the deposited data

Results flagged for a closer look

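In 118 groups of 4 libraries (59 genes, BPA and vehicle), a single library stood far from the other three of its group in 7, where chance flags about 1 in 20 groups. Of these, 5 were BPA replicate 4. It was the highest of its group for Trpv5 (12.7 FPKM, next 3.60 FPKM), Gna11, a G protein of receptor signalling (25.5 FPKM, next 16.5 FPKM), and Adcy6, an adenylyl cyclase (12.3 FPKM, next 7.12 FPKM). It was the lowest for Fdxr, which supplies electrons to ferredoxin (1.88 FPKM, next 3.53 FPKM), and for Rxrb (5.58 FPKM, next 7.82 FPKM). The other 2 were vehicle libraries: Fgfr3 was highest in vehicle replicate 4 (8.504 FPKM, next 6.14 FPKM), and the phosphate carrier Slc20a2 lowest in vehicle replicate 3 (7.32 FPKM, next 9.17 FPKM). None of the 6 members met this measure in either group.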

How the results depend on the processing

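The count of members called stayed at 0 under 20 alternatives. Of 99 values of single member changes under them, 96 kept their direction. Kl was -0.028 with library weights and -0.017 without both replicates 4, and Pth1r was 0.046 after GC correction. The mean difference of Cyp2r1 was 0.0187 FPKM without both replicates 4, and -0.159 to -0.0124 FPKM when each library was left out. The cause of these was not tested. Cyp24a1 ran from 0.66 to 1.45 (adjusted p = 0.331 to 0.711). Its unadjusted limma p was under 0.05 in 10 of the 20 alternatives. That p ran from 0.0037 with a replicate block to 0.12 without BPA replicate 4 and also without vehicle replicate 3. Cyp27b1 ran from -0.88 to -0.22 (adjusted p = 0.294 to 0.762); it was -0.79 with library weights and -0.76 with a pseudocount of 0.1 FPKM, and was not tested at a mean of at least 2 FPKM. Rescaled to a common total of reads, the log2 change was 1.03 for Cyp24a1, 0.12 for Kl and 0.15 for Vdr. It was -0.47 for Cyp27b1 and -0.21 for Pth1r with that scaling. At an unadjusted p under 0.05 there were 0 to 3 members. Over all genes, 1 was called, against 0 with limma-voom, 0 with the block, 8 with library weights, 2 with a term for replicates 1 and 2, and 0 to 4 with a library left out. List medians moved by less than the spread between libraries in 114 of 120 values, and 5 of 6 medians changed sign under some alternative. Deviations of same-numbered libraries correlated at -0.0329 to 0.138, not above 0.1 in every pair. Those of differently numbered libraries correlated at -0.219 to 0.194. With so few pairs, these values cannot decide whether the numbers pair the samples. With a replicate block 0 members were called. For Cyp27b1 and Cyp2r1 the spread between libraries exceeded counting error.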

Other observations

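Genes whose profiles over the 8 libraries lay near to each tested member, among protein-coding genes of at least 5 FPKM, are given as values, by the root mean square difference of centred log2(FPKM + 1). For Kl these were Ankhd1 (0.0617), Spred1 (0.0667) and Alg11 (0.0783), beside a spread of Kl itself of 0.221. For Vdr they were Nicn1 (0.0774), Arl2bp (0.0824) and Pkm (0.0855), beside 0.204. For Pth1r they were Unc45a (0.0491) and Aph1a (0.0583), beside 0.178. For Cyp27b1 they were Clba1 (0.254) and Leng8 (0.274), beside 0.466. For Cyp24a1 they were the mitochondrial genes mt-Nd6 (0.517) and mt-Nd5 (0.522) and Zranb1 (0.554), beside 0.868. The mitochondrial share of reads was 9.85, 9.81, 9.66 and 14.2% in BPA replicates 1 to 4, against 7.02, 8.33, 7.11 and 7.19% in vehicle replicates 1 to 4; its part in the level of Cyp24a1 was not tested.

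The level of Kl relative to Pth1r was 0.456, 0.414, 0.510 and 0.501 in BPA replicates 1 to 4, against 0.425, 0.385, 0.335 and 0.350 in vehicle replicates 1 to 4. BPA replicate 2 lay below vehicle replicate 1, and the other BPA libraries above every vehicle library. Both genes were at their highest in BPA replicate 4, and their ratio there was close to that of BPA replicate 3. The GC content of the transcripts differs, 48.1% for Kl and 60.4% for Pth1r, and GC content moved with the group; the log2 changes were 0.16 for Kl and -0.18 for Pth1r, and after GC correction 0.15 for Kl and 0.046 for Pth1r. The part of GC content in these values was not tested. The ratio was formed after the values were seen and carries no test.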
